A study of Mus musculus with 9 samples.

Results

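The miR-106b~25 cluster is a small group of miRNA hairpins, Mir106b, Mir93 and Mir25, that lies inside the Mcm7 gene, which encodes a subunit of the replicative DNA helicase. Its mature products were taken by name from the deposited table of 817 mature miRNAs: mmu-miR-106b-5p, mmu-miR-106b-3p, mmu-miR-93-5p, mmu-miR-93-3p and mmu-miR-25-3p, written without the species prefix from here on. These 5 members are 5 of the 817, and the opposite arm of miR-25, miR-25-5p, was also in the table and is described beside them as the sixth product of the cluster. They were followed in small RNA sequencing (sRNA-seq) of mouse Meis1/Hoxa9 preleukemic cells, in 5 libraries of Tut4/7 CTL and 4 libraries of Tut4/7 cKO genotype.

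All cells came from fetal livers of C57BL/6 embryos. They were enriched for c-Kit and transduced with retroviruses encoding Meis1 and Hoxa9. The study's methods describe serial replating of such cells with stem cell factor, IL-3, IL-6 and granulocyte-macrophage colony-stimulating factor. Liquid culture is described with stem cell factor, IL-6 and IL-3. In Tut4/7 cKO cells, floxed Tut4 and Tut7 were deleted by iCre under the Vav promoter, which is active in blood cells. The Tut4/7 CTL cells, labelled WT, were from littermates without iCre, so the deletion and the presence of iCre cannot be told apart in this comparison. The mRNAs of Tut4 and Tut7 are not part of small RNA data, so no direct check of the genotype labels was possible. The comparison asks whether loss of these enzymes changed the amount or the 3′ ends of the cluster's miRNAs.

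A primary miRNA transcript is cut to a hairpin by Drosha and then to a duplex by Dicer, and each arm of the hairpin, 5p or 3p, can give a mature miRNA. The mature strand is bound by an Argonaute protein and pairs with target mRNAs mainly through its seed, bases 2 to 8. TUT4 and TUT7 are terminal uridylyltransferases that add uridines to the 3′ ends of RNAs, among them miRNAs and their precursors, and an added uridine is read as T in sequencing. The miR-106b~25 cluster is transcribed with its host Mcm7, is under control of E2F factors in dividing cells, and is a paralog of the miR-17~92 cluster. Its best known targets include Cdkn1a, an inhibitor of the cell cycle, and Bcl2l11, which promotes apoptosis.

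In GRCm39 the hairpins lay on the minus strand of chromosome 5, within intron 13 of 14 of the canonical Mcm7 transcript (chr5:138162844-138170684). Mir106b covered chr5:138163999-138164080, Mir93 covered chr5:138163785-138163872 and Mir25 covered chr5:138163583-138163666, so the whole cluster spanned 498 bp. An exon of another annotated Mcm7 transcript overlapped Mir93 and Mir25, and no annotated exon overlapped Mir106b. The mature sequences, from RefSeq with the build GRCm38.p6, are shown because their seeds divide the products into families and their last bases decide what an added U can be told from. The seed is in capitals:
miR-106b-5p: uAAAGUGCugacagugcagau
miR-93-5p: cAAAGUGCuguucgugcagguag
miR-25-3p: cAUUGCACuugucucggucuga
miR-106b-3p: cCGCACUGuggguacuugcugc
miR-93-3p: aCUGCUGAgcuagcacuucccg
miR-25-5p: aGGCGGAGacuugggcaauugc

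miR-106b-5p and miR-93-5p shared the seed AAAGUGC with miR-17-5p and miR-20a-5p of the miR-17~92 cluster, and miR-25-3p shared AUUGCAC with miR-92a-3p. The paralogs are printed to show how near the shared bases run to the 3′ end:
miR-17-5p: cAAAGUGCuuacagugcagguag
miR-20a-5p: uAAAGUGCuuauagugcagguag
miR-92a-3p: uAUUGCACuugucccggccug
No read of any cluster product fitted another mature sequence, so the counts of these close relatives were not mixed with those of the cluster.

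A read was counted as uridylated when it ran past the mature 3′ end by 1 to 3 Ts. Where the genome itself has a T after the mature end, its read cannot be told from that of an added U, so the DNA of GRCm39 was read across each mature end on the minus strand. The next 3 genomic bases are in capitals:
miR-106b-3p: ccgcactgtgggtacttgctgcTCC
miR-93-5p: caaagtgctgttcgtgcaggtagTGT
miR-25-5p: aggcggagacttgggcaattgcTGG
miR-25-3p: cattgcacttgtctcggtctgaCAG
miR-106b-5p: taaagtgctgacagtgcagatAGT
miR-93-3p: actgctgagctagcacttcccgAGC
The first listed trio, miR-106b-3p, miR-93-5p and miR-25-5p, was followed by a T, and miR-25-3p, miR-106b-5p and miR-93-3p were not. A single T on miR-106b-3p, miR-93-5p or miR-25-5p could therefore be genomic or added, whereas a single T on miR-25-3p could not come from this locus. None of the products was followed by 2 Ts, so a tail of 2 or 3 Ts was not encoded at the locus of any of them.

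The libraries held 209702 to 316620 miRNA reads in Tut4/7 CTL and 175462 to 479342 in Tut4/7 cKO cells. The library of Tut4/7 CTL replicate 2 stood apart in its low uridylation. Over 115 miRNAs of the uridylation test that reached 10 reads in all libraries, its median uridylated share was 1.11%, against 4.48 to 6.30% in the other 4 Tut4/7 CTL libraries and 0.261 to 0.326% in the Tut4/7 cKO libraries. Results on uridylation are therefore given with and without Tut4/7 CTL replicate 2. The libraries of a group are numbered replicates, and the study's methods describe the biological replicates as coming from separate animals or embryos.

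The cluster's share of miRNA reads overlapped between genotypes. Its 5 members held 4.72, 4.98, 5.54, 5.46 and 5.12% of all miRNA reads in Tut4/7 CTL replicates 1 to 5 and 5.31, 5.88, 5.95 and 3.99% in Tut4/7 cKO replicates 1 to 4. The means were 5.16% ± 0.337 (SD, n = 5) and 5.28% ± 0.907 (SD, n = 4), a difference of 0.120 percentage points (exact two-sided permutation test, P = 0.810). Without Tut4/7 cKO replicate 4, the lowest library, the difference was 0.551 points (exact permutation test, P = 0.107), and from the summed CPM scaled as described next it was 0.728 points (P = 0.302, by the same exact test). miR-25-3p alone gave 69.6 to 80.2% of the member reads in every library.

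Only 1 arm of each hairpin was abundant among the mapped reads. A read that ran on into a genomic base other than T could not be mapped without a mismatch. Such reads were not counted, for example on miR-106b-5p, miR-93-3p and miR-25-3p, and their number is not known. The mature products are 21 to 23 bases long, so read counts stand close to counts per length, and levels are given as CPM, read counts brought to a common library total, with TMM scaling. miR-25-3p ranked 8 of the 817 miRNAs by level in both genotypes. Its level was 30782, 33806, 37444, 35243 and 43761 CPM in Tut4/7 CTL replicates 1 to 5. In Tut4/7 cKO replicates 1 to 4 it was 49384, 48973, 52240.5 and 27953 CPM. In 3 Tut4/7 cKO libraries miR-25-3p was above every Tut4/7 CTL library, and in replicate 4 it was below all of them.

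miR-106b-3p, from the arm opposite the one with the miR-17 family seed, ranked 24 in Tut4/7 CTL and 27 in Tut4/7 cKO cells. It was at 7883, 6840.2, 8117, 8555 and 7707 CPM in the Tut4/7 CTL replicates and at 10236, 8909, 8134 and 4547 CPM in the Tut4/7 cKO replicates, and the groups overlapped. miR-93-5p ranked 34 and 37. It was at 5512, 4742, 5929, 6664 and 4074 CPM in the Tut4/7 CTL replicates and at 3995, 4162, 4680 and 3518 CPM in the Tut4/7 cKO replicates. The Tut4/7 CTL libraries were mostly the higher ones for miR-93-5p, with overlap at replicate 5.

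The other arms were scarce. miR-106b-5p, the arm with the miR-17 family seed, had 5, 12, 9, 8 and 4 reads in the Tut4/7 CTL libraries and 4, 10, 15 and 11 in the Tut4/7 cKO libraries. miR-93-3p had 1, 5, 8, 4 and 4 reads and 4, 9, 6 and 11 reads. At these counts neither could show a difference in uridylation, and miR-93-3p did not reach the minimum for the abundance test of 10 reads in at least 4 libraries. miR-25-5p was intermediate, with 167 to 527 reads in Tut4/7 CTL and 73 to 488 reads in Tut4/7 cKO libraries.

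**Figure D1:**
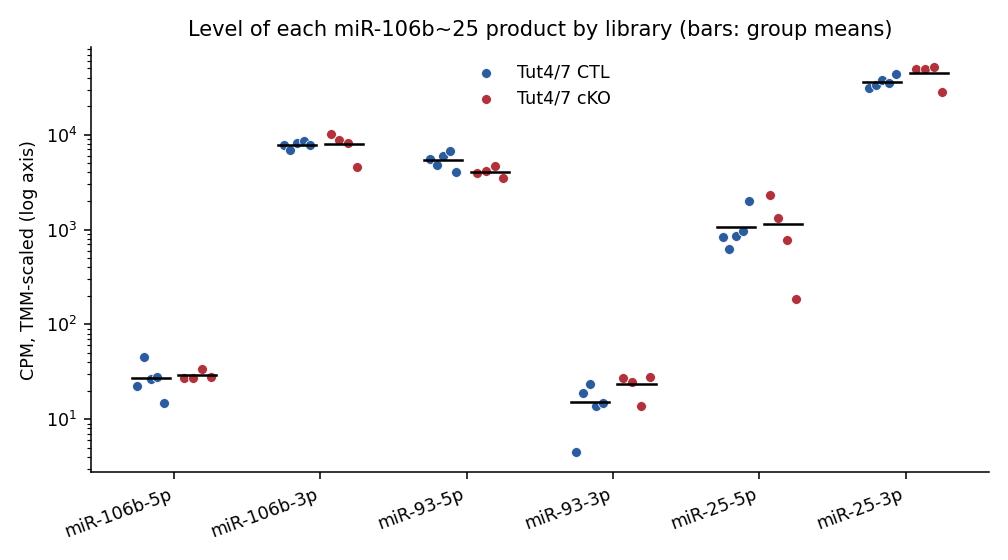
Level of the 6 cluster products in CPM with TMM scaling (log axis), with a point for each of the 5 Tut4/7 CTL (blue) and 4 Tut4/7 cKO (red) libraries and a bar at the group mean. miR-25-3p, miR-106b-3p and miR-93-5p lie far above their opposite arms, and the genotypes overlap for every product.

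The levels of 205 miRNAs were tested between genotypes with the quasi-likelihood method of edgeR and Benjamini-Hochberg adjustment over all of them. Of the 4 members tested, none passed an adjusted P of 0.05, against a background of 1 miRNA called, or 0.488% of those tested. At an unadjusted P under 0.05 there were also no members, against 15.1% of all tested. No member had groups that did not overlap in CPM, against 3.41% of the 205 with all Tut4/7 cKO libraries lower and 3.41% with all of them higher. The median log2 fold change over the 205 was −0.01. In edgeR's fit, miR-93-5p differed by −0.40 on the log2 scale (standard error 0.25, adjusted P = 0.497), and miR-25-3p by 0.30 (standard error 0.21, adjusted P = 0.574). miR-106b-3p and miR-106b-5p were nearer 0, at 0.02 (standard error 0.27) and 0.09 (standard error 0.41). The sixth product, miR-25-5p, was at 0.13 (standard error 0.61, adjusted P = 0.930). None of these differences passed the test, and fewer cells with a miRNA and less of it per cell cannot be told apart in such libraries.

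Among mapped reads, the arms kept their order in every library. miR-106b-3p reads outnumbered those of miR-106b-5p by 145 to 456-fold in Tut4/7 CTL and by 157 to 333-fold in Tut4/7 cKO libraries. The log2 ratio of 5p to 3p, with 0.5 added to each count, was −8.14 ± 0.60 (SD, n = 5) and −7.95 ± 0.50 (SD, n = 4), and the groups overlapped (exact permutation test, P = 0.635). For miR-93 the 5p arm was the abundant one, by 229 to 823-fold in Tut4/7 CTL and 122 to 315-fold in Tut4/7 cKO libraries. Its log2 ratio was 8.41 ± 0.80 against 7.40 ± 0.63, a difference of −1.01 that did not pass (exact permutation test, P = 0.0635, adjusted P = 0.127 over the 2 arm ratios). That ratio rests on 22 and 30 reads of miR-93-3p in all. For miR-25 the 3p arm prevailed by 22.1 to 53.6-fold in Tut4/7 CTL and 21.1 to 151-fold in Tut4/7 cKO libraries. The comparison of this ratio, chosen after the data were seen, gave −5.20 ± 0.47 against −5.73 ± 1.22 (exact permutation test, P = 0.429).

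Uridylation of the abundant arms fell in Tut4/7 cKO cells. Of the 5 members, 3 could be tested, miR-93-5p, miR-106b-3p and miR-25-3p, and all 3 fell. The background was high: 59.4% of the 143 miRNAs tested in edgeR, on uridylated against non-uridylated reads, fell past an adjusted P of 0.05 and none rose, and 60.8% had an unadjusted P under 0.05. A fall was thus the more common outcome among all tested miRNAs, and the members' count is read against that share. A miRNA entered only with a uridylated read in at least 3 Tut4/7 CTL libraries, so entry itself leaned towards a fall. With an entry rule blind to genotype, 85 of 151 miRNAs fell and 0 rose. The sixth product, miR-25-5p, was tested too and did not fall.

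miR-93-5p, a miR-17 family miRNA by its seed, had the highest T-ended share of the 3, a share that counts single Ts which may be genomic. Its uridylated share was 20.2, 3.02, 9.97, 18.1 and 14.2% in Tut4/7 CTL replicates 1 to 5 and 1.71, 0.914, 0.488 and 0.429% in Tut4/7 cKO replicates 1 to 4. Every Tut4/7 cKO library was below every Tut4/7 CTL library, and the lowest Tut4/7 CTL value was that of replicate 2. The mean fell from 13.1% ± 6.85 (SD, n = 5), or 15.6% ± 4.51 without Tut4/7 CTL replicate 2, to 0.885% ± 0.591 (SD, n = 4). In edgeR's test the log2 odds ratio was −4.08 (standard error 0.68, adjusted P = 0.000112). It was −4.53 without Tut4/7 CTL replicate 2.

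miR-106b-3p had few tails in either genotype, and the fall was of like size. Its uridylated share was 2.15, 0.220, 2.07, 2.20 and 2.58% in the Tut4/7 CTL replicates and 0.200, 0.0915, 0.0561 and 0.111% in the Tut4/7 cKO replicates. The groups did not overlap, although Tut4/7 CTL replicate 2 lay just above the highest Tut4/7 cKO library. The 95% Wilson intervals of those 2 libraries, 0.0857 to 0.565% and 0.0681 to 0.587%, overlapped. The means were 1.84% ± 0.930 (2.25% ± 0.229 without Tut4/7 CTL replicate 2) and 0.115% ± 0.0613, with 10 uridylated of 10149 reads in all Tut4/7 cKO libraries. The log2 odds ratio was −3.94 (edgeR, standard error 0.74, adjusted P = 0.000288). It was −4.44 without that library.

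miR-25-3p, the most abundant member and the one whose single Ts are not encoded at its locus, was tailed at about the level of miR-106b-3p. Its uridylated share was 2.76, 0.435, 1.23, 2.44 and 2.50% in the Tut4/7 CTL replicates and 0.0968, 0.0777, 0.101 and 0.189% in the Tut4/7 cKO replicates. The groups were again apart, with the lowest Tut4/7 CTL library, replicate 2, above the highest Tut4/7 cKO library. The Wilson interval of Tut4/7 CTL replicate 2, 0.318 to 0.593%, lay above that of Tut4/7 cKO replicate 4, 0.124 to 0.289%. The means were 1.87% ± 0.996 (2.23% ± 0.680 without Tut4/7 CTL replicate 2) and 0.116% ± 0.0497, on 65 uridylated of 59256 Tut4/7 cKO reads. The log2 odds ratio was −3.88 (edgeR, standard error 0.61, adjusted P = 8.53e-05). It was −4.29 without that library.

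All 3 shares thus had groups that did not overlap, as had 39.1% of the 115 miRNAs covered in all libraries. By size of fall, miR-93-5p, miR-106b-3p and miR-25-3p ranked 41, 45 and 48 of 143. Their median log2 odds ratio was −3.94, and that of all tested miRNAs was −2.94. In Tut4/7 CTL cells miR-93-5p was above the median share of the 115 miRNAs, which was 4.79%, at rank 34, whereas miR-25-3p and miR-106b-3p were below it at ranks 88 and 89.

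**Figure D2:**
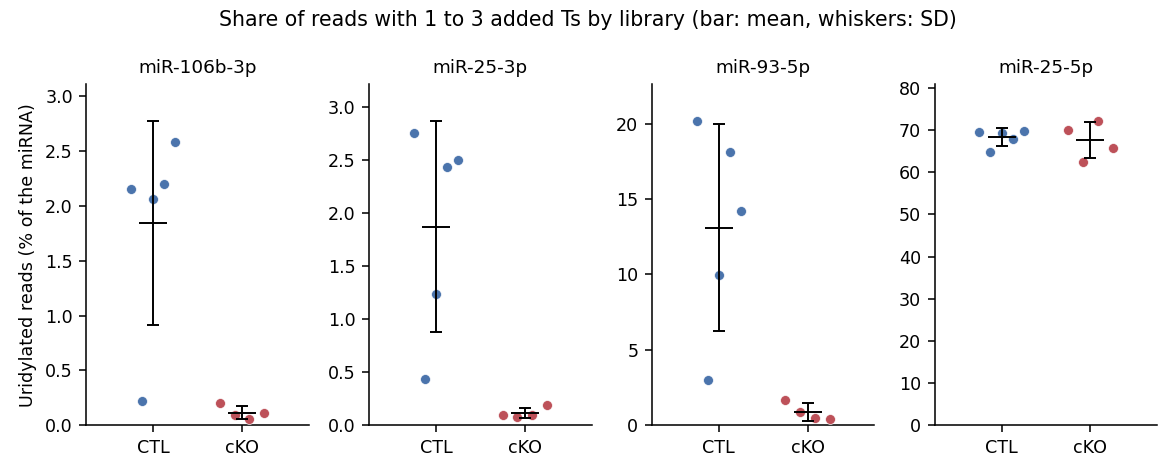
Share of reads with 1 to 3 added Ts, in percent of the reads of each miRNA, with a point per library, the mean as a bar and the SD as whiskers (5 Tut4/7 CTL in blue, 4 Tut4/7 cKO in red; each panel has its own axis from 0). miR-106b-3p, miR-25-3p and miR-93-5p have groups that do not overlap, and in all 3 the lowest Tut4/7 CTL point is replicate 2, whereas miR-25-5p stays between 62.5 and 72.1% in all libraries.

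miR-25-5p behaved otherwise. Its share of T-ended reads was 69.5, 64.7, 69.3, 67.9 and 69.8% in the Tut4/7 CTL replicates and 69.97, 62.5, 72.1 and 65.8% in the Tut4/7 cKO replicates, so the groups overlapped throughout. The means were 68.2% ± 2.13 (69.1% ± 0.872 without Tut4/7 CTL replicate 2) and 67.6% ± 4.31, with a log2 odds ratio of −0.04 (edgeR, standard error 0.40, adjusted P = 0.9498). Its mature sequence is followed by a genomic T, which a single added U cannot be told from. The same holds for miR-106b-3p and miR-93-5p, where the T-ended share was 13.1% or less in the means. Between the 2 arms of this hairpin the change in log2 odds differed by −3.77, and by −4.17 without Tut4/7 CTL replicate 2. This pair was chosen after its values were seen, so the difference is given with no test.

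The 3 abundant arms did not differ detectably from each other in the size of the fall. The difference in the change of log2 odds was −0.17 between miR-93-5p and miR-25-3p (exact permutation test, adjusted P = 0.857 over the 6 pairs). It was 0.41 between miR-106b-3p and miR-93-5p (adjusted P = 0.5 over the 3 pairs added) and 0.24 between miR-106b-3p and miR-25-3p (adjusted P = 0.651), both by the exact permutation test. With one library left out at a time these differences ranged from −0.61 to 0.35, from 0.10 to 0.58 and from −0.11 to 0.46, respectively. Pairs with miR-106b-5p gave 2.90, 2.73 and −0.18, but its 4 to 15 reads per library leave those values to the added 0.5 counts, so they are not read as differences.

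Most tails were a single T: 12.9% ± 6.78 of miR-93-5p reads, 1.65% ± 0.833 of miR-106b-3p reads and 1.59% ± 0.809 of miR-25-3p reads ended in 1 T in Tut4/7 CTL libraries. In Tut4/7 cKO libraries these shares were 0.867% ± 0.610, 0.115% ± 0.0613 and 0.114% ± 0.0507, and the groups did not overlap. Each of these differences had P = 0.0159 in the exact permutation test, the smallest that 5 against 4 libraries allow, and an adjusted P of 0.0714 over the 18 tail comparisons. That adjusted value is above 0.05, so none of these differences passed. With P at its floor, the adjusted value is set by how many of the 18 comparisons reach that floor. It therefore cannot decide whether these shares differ. The share of all miRNAs with groups apart in single Ts was not computed. For 1 to 3 Ts together it was 39.1% of the 115 covered miRNAs. For miR-106b-3p the nearest libraries were Tut4/7 CTL replicate 2, at 0.220% on 4 reads, and Tut4/7 cKO replicate 1, at 0.200% on 3 reads.

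Tails of 2 or 3 Ts, which no product's locus encodes, were also fewer in Tut4/7 cKO libraries. miR-25-3p had 124 reads with 2 Ts and 9 with 3 Ts in Tut4/7 CTL, and 2 and 0 in Tut4/7 cKO libraries. miR-106b-3p had 17 and 4 against 0 and 0, and miR-93-5p had 14 and 3 against 1 and 0. miR-25-5p had 7 and 2 such reads in Tut4/7 CTL and 0 and 0 in Tut4/7 cKO libraries, on 1454 and 1245 reads. Its difference did not pass for 2 Ts (exact permutation test, P = 0.0794, adjusted P = 0.204 over the 18 tail comparisons) or for 3 Ts (exact permutation test, P = 0.556, adjusted P = 0.909), and Tut4/7 CTL replicate 4 had none.

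For miR-25-3p the share of reads with 2 or 3 Ts was 0.508, 0.0334, 0.126, 0.436 and 0.301% in Tut4/7 CTL replicates 1 to 5. In the Tut4/7 cKO libraries it was 0.00874% in replicate 3 and 0 in the other 3, where 3 counts would be 0.0166 to 0.0415% of the reads. The groups did not overlap, as held for 44.9% of the 49 miRNAs that had such reads in at least 3 Tut4/7 CTL libraries and at least 100 reads in all. The means were 0.281% ± 0.201 and 0.00218% ± 0.00437 (exact permutation test, P = 0.0159, adjusted P = 0.0476 over the 3 arms, a comparison added after the data were seen). Without Tut4/7 CTL replicate 2 the mean was 0.342% ± 0.168 (exact permutation test, P = 0.0286), a P that 8 libraries in equal groups cannot go below. Taken apart, as in the tail comparisons given above, neither share passed for miR-25-3p. For 2 Ts the exact permutation test gave P = 0.0159 (adjusted P = 0.0714), and for 3 Ts it gave P = 0.238 (adjusted P = 0.476). The same P of 0.0159 thus fell on either side of 0.05 by the number of comparisons adjusted over. The adjusted P of 0.0476 is not read as firmer than that of 0.0714.

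For miR-106b-3p the Tut4/7 CTL mean was 0.191% ± 0.122 and all Tut4/7 cKO libraries were at 0, which allows up to 0.0842 to 0.200% by 3 counts. For miR-93-5p the means were 0.218% ± 0.143 and 0.0179% ± 0.0357. In both, Tut4/7 CTL replicate 2 was at 0 and touched the Tut4/7 cKO libraries, and the differences did not pass (exact permutation test, P = 0.0794 and adjusted P = 0.0794 for each). Without that library the Tut4/7 CTL means were 0.239% ± 0.0679 and 0.273% ± 0.0861, and both differences had P = 0.0286 (exact permutation test, adjusted P = 0.0286). Among the tails of libraries with at least 10 of them, 13.2% ± 4.74 (SD, n = 5) on miR-25-3p and 10.8% ± 3.56 (SD, n = 4) on miR-106b-3p were longer than a single T in Tut4/7 CTL cells. On miR-93-5p and miR-25-5p, which are followed by a genomic T as miR-106b-3p is, these shares were 1.57% ± 1.24 and 0.852% ± 0.544 (SD, n = 5).

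**Figure D3:**
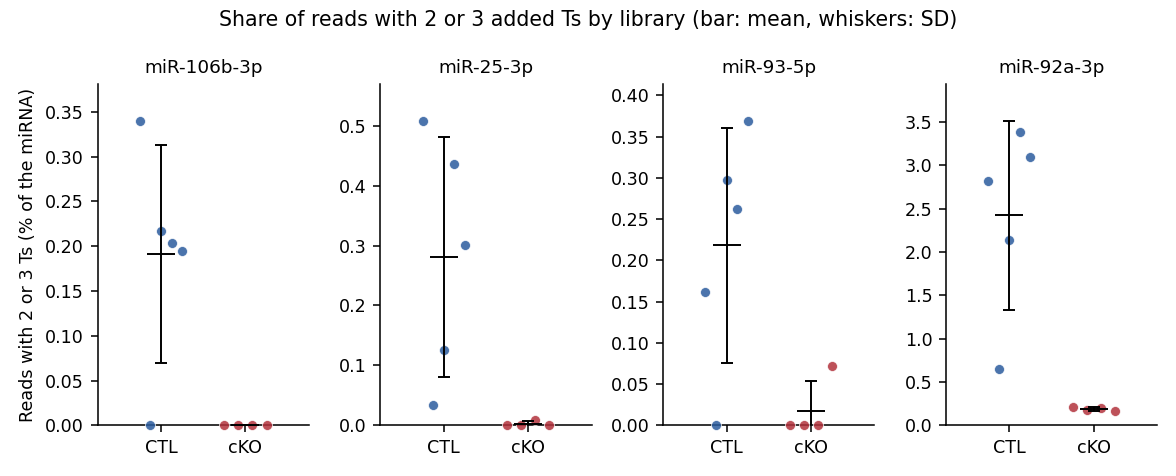
Share of reads with 2 or 3 added Ts, in percent of the reads of each miRNA, with a point per library, the mean as a bar and the SD as whiskers (5 Tut4/7 CTL in blue, 4 Tut4/7 cKO in red; each panel has its own axis from 0). For miR-25-3p and the paralog miR-92a-3p all Tut4/7 CTL points are above all Tut4/7 cKO points, and for miR-106b-3p and miR-93-5p Tut4/7 CTL replicate 2 lies at 0.

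The scarce arms gave no measure of tailing. Of the miR-106b-5p reads, 2 of 38 were uridylated in the Tut4/7 CTL libraries together and 0 of 40 in the Tut4/7 cKO libraries, and of the miR-93-3p reads 2 of 22 and 1 of 30. At such depth neither a loss nor its absence was detectable.

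Of all member reads together, 0.680 to 4.82% were uridylated in Tut4/7 CTL and 0.123 to 0.225% in Tut4/7 cKO libraries, with the lowest Tut4/7 CTL value again from replicate 2.

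Reads that stop before the mature end share their total with the tailed reads, so a loss of tails alone raises their share. miR-25-3p and miR-93-5p ended mostly at the mature end, at 75.2% ± 1.71 and 71.2% ± 6.91 of reads in Tut4/7 CTL libraries. miR-106b-3p was more ragged, with 39.8% ± 12.0 at the mature end and 41.0% ± 8.29 a base short of it. miR-25-3p was short by a single base in 22.2% ± 1.45 of reads, whereas miR-93-5p was short by 2 bases in 12.96% ± 1.74 and by a single base in 2.01% ± 0.478. Since the reads were mapped to the full mature sequence with Ts after it, a T added to such a shortened end would not be mapped and was not counted.

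Truncation of miR-93-5p was 17.99, 16.3, 16.0, 12.4 and 16.1% of reads in Tut4/7 CTL replicates 1 to 5 and 27.7, 17.2, 22.3 and 26.3% in Tut4/7 cKO replicates 1 to 4. The Tut4/7 cKO libraries were the higher ones, with replicate 2 within the Tut4/7 CTL range. The means were 15.7% ± 2.06 and 23.4% ± 4.72 (exact permutation test, P = 0.0317), which did not pass after adjustment over the 9 end comparisons (adjusted P = 0.286). Among non-uridylated reads alone the difference was 5.41 in place of 7.63 percentage points (exact permutation test, adjusted P = 0.5), and that in the share at the mature end turned from 4.58 to −5.41. Of 64 miRNAs that reached 100 reads in all libraries, 10.9% had all Tut4/7 cKO libraries above all Tut4/7 CTL libraries in truncated share and none had them all below, and no member was among the former. For miR-25-3p the truncated share was 22.9% ± 1.59 against 25.6% ± 2.97 (exact permutation test, P = 0.127), and for miR-106b-3p it was 58.4% ± 12.8 against 57.7% ± 17.5 (P = 0.968). A start away from the mature 5′ end was found in at most 0.477% of the reads of these arms in every library, with no difference that passed (exact permutation test, smallest adjusted P = 0.821).

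**Figure D4:**
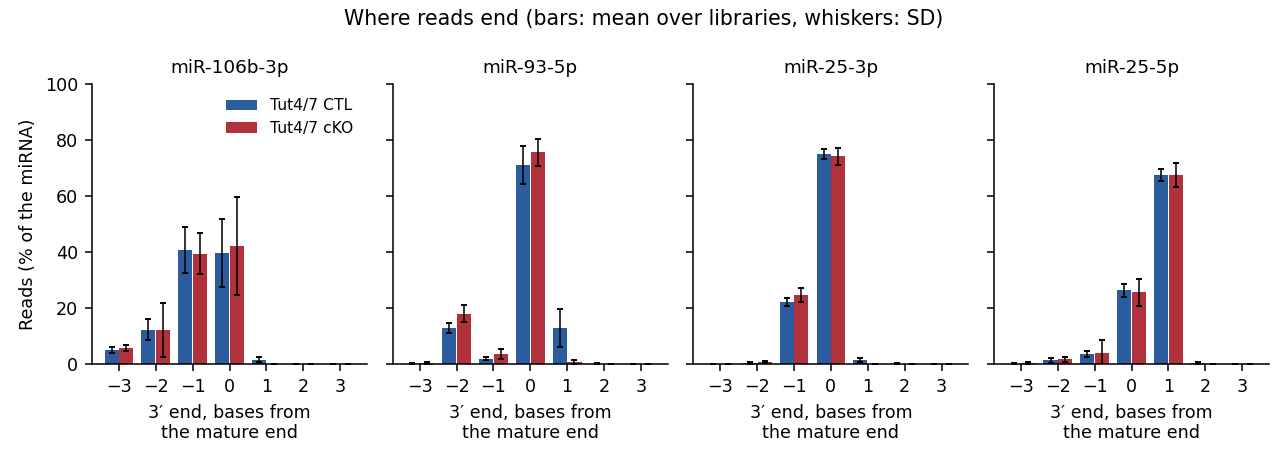
Share of the reads of 4 cluster products, in percent, by where they end, in bases from the mature 3′ end (0 is the mature end, negative values are shorter reads, and 1 to 3 are reads with that many Ts). Bars are means over 5 Tut4/7 CTL (blue) and 4 Tut4/7 cKO (red) libraries with the SD as whiskers. The bar at 1 falls from 12.9 to 0.867% for miR-93-5p and stays at 67.6% in both genotypes for miR-25-5p.

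The seed relatives in the miR-17~92 cluster give the nearest comparison. Of the relatives outside the cluster with the seed AAAGUGC, 2 were in the table, and 1 of these 2 fell in uridylation, against 59.4% of all miRNAs tested. miR-17-5p fell with a log2 odds ratio of −3.36 (edgeR, standard error 0.83, adjusted P = 0.00272), from 4.79% ± 2.68 to 0.227% ± 0.263, on 38 and 2 uridylated reads. miR-20a-5p, at 9 and 2 uridylated reads, had −1.52 (standard error 0.91, adjusted P = 0.164). Both are followed by a genomic T, as miR-93-5p is. The change of miR-93-5p differed from that of miR-17-5p by −1.48 in log2 odds (exact permutation test, P = 0.0476), which did not pass over the 6 pairs (adjusted P = 0.0714). miR-17-5p had 0, 1, 1 and 0 uridylated reads in the Tut4/7 cKO libraries, so this value moves with the 0.5 counts added. It is therefore not read as a difference, although without Tut4/7 CTL replicate 2 it was −1.73 (exact permutation test, adjusted P = 0.0429).

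Of 3 listed miRNAs outside the cluster with the seed AUUGCAC, only miR-92a-3p could be tested, and it did not pass (log2 odds ratio −0.24 in edgeR, standard error 0.41, adjusted P = 0.625). It is followed by a genomic T at a locus, and 93.2 to 94.9% of its reads in Tut4/7 CTL and 95.4 to 96.3% in Tut4/7 cKO libraries ended in 1 T. The change of miR-25-3p differed from it by −3.57 in log2 odds (exact permutation test, P = 0.0159, adjusted P = 0.0317 over the 6 pairs). In tails of 2 Ts, however, miR-92a-3p was lower in Tut4/7 cKO libraries too. They made up 2.58, 0.625, 1.999, 3.12 and 2.88% of reads in the Tut4/7 CTL replicates and 0.208, 0.172, 0.200 and 0.163% in the Tut4/7 cKO replicates. The groups did not overlap, as held for 44.9% of 49 miRNAs in 2 or 3 Ts together. The share for 2 Ts alone was not computed. Genomic bases beyond the first T were not examined for miR-92a-3p, so its tails of 2 Ts may be genomic in part.

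In the whole miR-17~92 cluster, 11 of 12 arms were listed. Of the 6 tested for abundance none passed, and of the 4 tested for uridylation 2 fell, miR-17-5p and miR-18a-3p (log2 odds ratio −5.32 in edgeR, standard error 1.06, adjusted P = 0.000510). Both counts come from comparisons with the backgrounds of 0.488% and 59.4% given above.

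**Figure D5:**
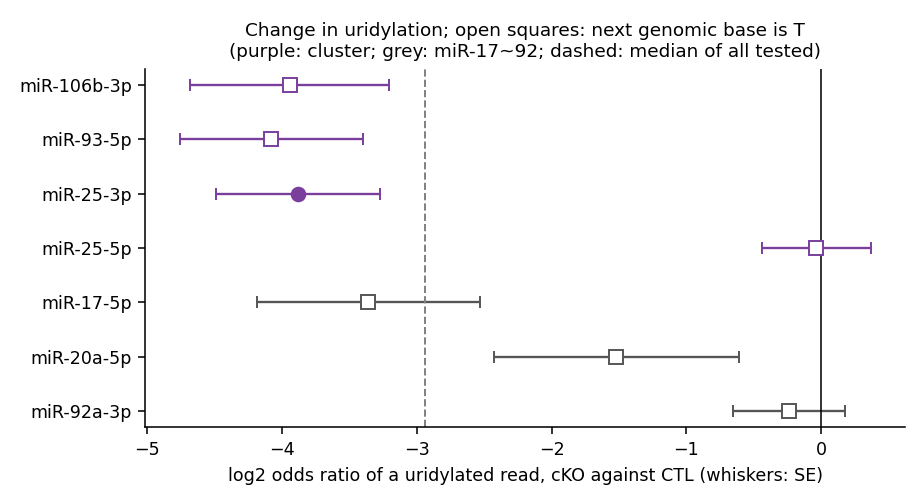
Log2 odds ratio of a uridylated read in Tut4/7 cKO against Tut4/7 CTL cells, with its standard error as whiskers, for 4 products of the miR-106b~25 cluster (purple) and 3 seed relatives of the miR-17~92 cluster (grey); 0 is no change and the dashed line is the median of the 143 miRNAs tested, −2.94. Open squares are followed by a genomic T and the filled circle, miR-25-3p, is not; miR-25-5p and miR-92a-3p lie near 0 and the other points lie to the left.

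The miRNAs whose uridylated share followed that of miR-93-5p most closely over the 9 libraries were miR-423-5p (Spearman's rho 0.983), miR-501-3p (0.967) and miR-652-3p (0.967). In log2 CPM the closest were miR-30a-3p (0.95), miR-1983 (0.783) and miR-30a-5p (0.783). These are descriptions over 9 libraries that share depth and genotype, and the order of the first trio includes the difference between genotypes.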

How the data were processed

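sRNA-seq libraries of 5 Tut4/7 CTL and 4 Tut4/7 cKO cultures were analysed, grouped by genotype and replicate number in the labels. The authors removed adapters (cutadapt 5.0), mapped reads without mismatches (Bowtie 1.3.1) to mature miRBase sequences extended by 3 Ts, and deposited unnormalized read counts, both for each mature miRNA and for every distinct sequence read. The submitters' processing notes also name DESeq2 1.42.1. The uridylated mark differed from the read coordinates in 0 cases, and the summed reads differed from the table in 0 cases.

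For abundance, miRNAs that reached 10 reads in 4 or more libraries entered a quasi-likelihood test in edgeR 4.0.16 (R 4.3.3) with TMM factors and a genotype term alone. For uridylation, a miRNA needed 10 reads in 5 or more libraries and a uridylated read in 3 or more Tut4/7 CTL libraries, and its uridylated and non-uridylated reads were fitted in edgeR with library terms, a read class term and the interaction of class with genotype. Benjamini-Hochberg adjustment was over all miRNAs tested. The standard errors given with edgeR values were worked back from the test, as the absolute log2 value over the square root of its F statistic. Values per library were compared with exact two-sided permutation tests in SciPy 1.17.1. Wilson intervals and the limit of 3 counts cover counting error only, since the reads carry no molecular identifiers and PCR copies count as reads.

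The members, the related lists, named by seed and by paralogous cluster, and the likeness rule (the 3 most like miR-93-5p by Spearman's rho in each measure) were chosen with earlier results of these data known. The named miRNAs are the members, miR-25-5p and the listed relatives. Comparisons called added were chosen after the files were seen. On simulated counts the abundance test recovered 49 of 50 changed miRNAs among 205 with 3 false calls, at a log2 fold change of 2. The uridylation test recovered 43 of 50 among 143 with 0 false calls, at a log2 odds ratio of −3. The median estimates were 1.62 in abundance and −3.06 in uridylation. Smaller changes were not tested in this way. In the real libraries the median uridylated share of CTL replicate 2 was 1.11%, against 4.48 to 6.30% in the other CTL libraries. The 43 recovered and 0 false calls hold for the simulated counts only. They are not read as rates under such a shift of a whole library. Alternatives comprised DESeq2 1.42.0, other size factors and minimums of reads, a quasi-binomial model, a replicate block, other denominators and omission of each library in turn. Tut4 and Tut7 mRNA and the study's other assays were not analysed here.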

Additional observations from a re-analysis of the deposited data

Results flagged for a closer look

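In 9 of 52 groups of libraries tested, the highest or lowest library lay far from the others of its genotype (Dixon's test), where chance alone gives about 1 in 20.

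Tut4/7 CTL replicate 2 was the outlying library in 3 of them. Its uridylated share of miR-106b-3p was 0.220%, against 2.07 to 2.58% in the other Tut4/7 CTL libraries, and its share with 1 T was the same 0.220%, against 1.81 to 2.39%. For miR-25-5p its share with 1 T was 64.1%, against 67.9 to 69.1%.

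Levels stood apart in 3 groups. miR-25-3p was at 27953 CPM in Tut4/7 cKO replicate 4, against 48973 to 52240.5 CPM in the other Tut4/7 cKO libraries. miR-25-5p was at 1980 CPM in Tut4/7 CTL replicate 5, against 629 to 977 CPM. miR-106b-5p was at 34.2 CPM in Tut4/7 cKO replicate 3, against 27.2 to 27.7 CPM, on 4 to 15 reads per library.

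The remaining 3 concerned tails of 2 Ts on 1 to 3 reads. miR-93-5p had a share of 0.0715% in Tut4/7 cKO replicate 4 and 0 in the other Tut4/7 cKO libraries. miR-25-3p had 0.00874% in Tut4/7 cKO replicate 3 and 0 in the others. miR-25-5p had 0 in Tut4/7 CTL replicate 4 and 0.535 to 0.683% in the others. The cause of these departures was not tested.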

How the results depend on the processing

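Depth limited the scarce arms most: miR-106b-5p and miR-93-3p had 1 to 15 reads per library. With 1 library left out, the smallest exact P is 0.0286 or 0.0357, so an adjusted value above 0.05 in those settings says nothing about stability. Of 577 alternative values of 49 results with a direction and a test, 477 kept both. The 477 include permutation results that stayed above 0.05 where the smallest exact P left little room to pass. That count is therefore not a measure of stability. Of 34 alternative counts of called miRNAs, 21 stayed within 1.5 times the reported count. The uridylation of miR-106b-3p and miR-25-3p passed in all alternatives run, and that of miR-93-5p in all but the quasi-binomial model (log2 odds ratio −4.39, adjusted P = 0.0589). The cause of the changes listed here was not tested.

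The number of miRNAs called in abundance was 1, and it was 11 with DESeq2 (6 higher and 5 lower), 18 of 817 without a filter on low counts, 0 with at least 50 reads and 0 to 2 with a library left out, with 2 without Tut4/7 CTL replicate 2 and 0 without Tut4/7 CTL replicate 3 or any Tut4/7 cKO replicate. For uridylation it was 85, and it was 49 of 73 with at least 200 reads, 28 in the quasi-binomial model, 56 of 81 without miRNAs followed by a genomic T, and 61 (without Tut4/7 cKO replicate 3) to 101 (without Tut4/7 CTL replicate 2) with a library left out.

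No clear pairing by replicate number was seen in abundance, taken as deviations from the group means. The correlations of same-numbered libraries were −0.108, −0.200, 0.432 and 0.0795, and 1 of 4 Tut4/7 cKO libraries correlated best with its own number. Pairing in uridylation was not examined. With the replicate block, over 8 libraries, 0 miRNAs were called in abundance, against 1 without it, and 73 against 74 in uridylation.

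Values near 0 in log2 abundance, all uncalled, changed sign. miR-106b-5p was at −0.024 without a filter and −0.024 with reads of a single fit, −0.16 with the replicate block, −0.17 in the same libraries without it and −0.17 to 0.24 with a library left out. miR-106b-3p was at −0.14, −0.075, −0.15 and −0.089 in these settings and −0.12 to 0.13 with a library left out. miR-25-5p was at −0.11 without a filter, −0.029 with the block and −0.47 to 0.42 with a library left out. Its log2 odds ratio of uridylation was 0.024 among reads that reach the mature end and −0.14 to 0.083 with a library left out. From uridylated reads alone in DESeq2, its log2 fold change was 0.22 and that of miR-92a-3p was 0.20. Those values are changes in the level of uridylated reads and not odds ratios.

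With a library left out, the difference in the cluster's share of reads was −0.102 to 0.551 percentage points (0.728 from summed TMM-scaled CPM) and that of the miR-106b arm ratio −0.031 to 0.43. The share of miR-25-5p with 1 T differed by −1.57 to 1.64 points, and by 1.17 among reads that reach the mature end. The truncated share of miR-106b-3p differed by −9.10 to 4.33 points and its share at the mature end by −2.61 to 10.8. The share at the mature end differed by −1.68 to 0.516 for miR-25-3p, and by −5.41 for miR-93-5p among non-uridylated reads. Shifted starts differed by −0.0596 to 0.0595 for miR-93-5p and −0.0263 to 0.00419 for miR-25-3p.

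Differences between members in the change of log2 odds, with a library left out, were 2.47 to 3.29 (miR-106b-5p against miR-93-5p), 2.32 to 3.07 (miR-106b-5p against miR-25-3p), −0.61 to 0.35 (miR-93-5p against miR-25-3p), −0.52 to 0.31 (miR-106b-5p against miR-20a-5p, 0.57 among reads that reach the mature end), −1.79 to −1.12 (miR-93-5p against miR-17-5p, −2.005 with 1 count added, adjusted P = 0.0238, where the few tailed miR-17-5p reads leave the value to the added count), −3.88 to −3.34 (miR-25-3p against miR-92a-3p), −0.11 to 0.46 (miR-106b-3p against miR-25-3p) and −4.17 to −3.58 (miR-25-3p against miR-25-5p). The share with 2 or 3 Ts differed by −0.239 to −0.154 points for miR-106b-3p, −0.255 to −0.162 for miR-93-5p and −0.340 to −0.222 for miR-25-3p.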
